A study of Mus musculus with 4 samples.

Results

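Gm40193 (ENSMUSG00000109833) is 1 of the 32285 genes counted in single-cell RNA sequencing of mouse molar tooth organs, and it was chosen by the rise of its level in mesenchyme from E15.5 to P1. Everything below on that contrast is a description without a test. The gene had been put forward as a long non-coding RNA of P1 mesenchyme. The annotation and the counts went against that name. The gene is annotated as protein coding, and under the main clustering its highest level was in ameloblast-like epithelium. In the maxillary library odontoblast-like cells were higher at a coarser resolution and, within counting error, without shared barcodes. It is called by its symbol here.

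Gm40193 lies on the minus strand of mouse chromosome 11 (mm10, the GRCm38 assembly) at chr11:70532232-70532939, a span of 708 bases. GENCODE gives it 1 transcript of 237 bases in 2 exons, of 73 bases (chr11:70532867-70532939) and 164 bases (chr11:70532232-70532395). That model has a start codon, 78 codons before the stop and no untranslated bases beyond the stop codon, and it carries transcript support level 5, the weakest grade. RefSeq also lists the gene as protein coding, over a longer span of 4828 bases (chr11:70532126-70536953) with 1 coding and 1 non-coding transcript. RefSeq thus reaches 106 bases further at the 3′ end and 4014 bases further at the 5′ end. Whether a protein is made was not measured. The annotated transcript is shown whole because it is the sequence on which the counted feature is defined, read from the GRCm38 genome on the minus strand, with the start and stop codons in capitals.
Gm40193 transcript: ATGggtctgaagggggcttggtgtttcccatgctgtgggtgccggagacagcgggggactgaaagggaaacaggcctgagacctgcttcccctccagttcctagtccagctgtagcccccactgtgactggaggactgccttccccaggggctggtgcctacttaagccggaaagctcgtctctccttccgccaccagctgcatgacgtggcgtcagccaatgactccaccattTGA

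Teeth form where an epithelium meets neural crest mesenchyme. The inner epithelium gives rise to ameloblasts, which secrete the enamel proteins amelogenin (Amelx), ameloblastin (Ambn) and enamelin (Enam) and the protease Mmp20. The dental papilla gives rise to odontoblasts, which face the ameloblasts and secrete dentin, a mineralised collagen matrix with dentin sialophosphoprotein (Dspp) and Dmp1. In mouse molars these layers differentiate around birth, and the follicle around the tooth later forms its supporting tissues. Gene symbols that begin with Gm are placeholders for predicted mouse genes, and no role of Gm40193 is assumed here.

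The 4 libraries came from wild-type C57BL/6J molars (genotype label WTB6), 1 library each from the maxillary and the mandibular molars of E15.5 embryos and of P1 pups, with 6 tooth organs pooled per library and no other treatment or allele. The age label reads E15 for the embryos, and the protocol speaks of P0/P1 pups. Each stage and jaw has 1 library, no difference between stages or jaws was tested, and all intervals are 95% intervals of counting error only. Levels are UMIs (tags that each mark 1 captured RNA molecule) of Gm40193 per 1000000 UMIs of the cells named, written CPM.

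Barcodes with at least 1000 UMIs were kept as cells. The E15.5 maxillary library had 109723360 UMIs over 10885 barcodes, of which 10073 were kept at a median of 9596 UMIs. The E15.5 mandibular library had 86659227 UMIs over 7947 barcodes, with 6911 kept at a median of 11234. The P1 maxillary library had 128812956 UMIs over 18707 barcodes, with 17040 kept at a median of 4019. The P1 mandibular library had 139873101 UMIs over 19401 barcodes, with 10120 kept at a median of 10390.

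The P1 libraries stood apart in the barcodes they shared. They had 7131 barcodes in common, against 28 to 70 for the other 5 pairs of libraries. Their median depth was 12088 UMIs in maxillary and 2870 in mandibular counts (median log2 ratio 2.07), and they were dropped from the mandibular library. In the maxillary library they were most of the deep cells. Of the kept maxillary cells, 0.577% had a shared barcode at 1000 to 2000 UMIs, 7.37% at 2000 to 4000 and 39.5% at 4000 to 8000. The share was 92.3% at 8000 to 16000 and 97.5% from 16000 UMIs. The Gm40193 level in those depth classes was 6.32, 3.15, 11.7, 68.4 and 106 CPM, lowest at 2000 to 4000 UMIs. The maxillary P1 levels of the main classes are given with and without the shared barcodes, and where no value without them is printed, the maxillary value includes them. The mandibular P1 values hold none.

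Gm40193 was nearly absent at E15.5 and abundant at P1. The E15.5 maxillary library held 1 UMI in 1 cell (0.00916 CPM), and the E15.5 mandibular library held 23 UMIs in 8 cells (0.268 CPM, interval 0.170 to 0.402). The P1 maxillary library held 8315 UMIs in 2002 cells (65.2 CPM, 63.8 to 66.6), and the P1 mandibular library held 14311 UMIs in 2632 cells (124 CPM, 122 to 126). Of the 8358 Gm40193 UMIs over all maxillary P1 barcodes, 8210 (98.2%) were in shared barcodes, and without those the kept cells held 105 UMIs at 3.37 CPM (2.76 to 4.08). The intervals of the 4 libraries did not overlap. The share of cells with a UMI was 0.00993%, 0.116%, 11.7% and 26.0% in the same order.

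Cells were clustered within each library without Gm40193 and named from marker genes, with "-like" added because no deposited annotation of cells was used. The ameloblast-like cluster was led by Amelx, Calb1, Enam, Dspp and Mmp20 in both P1 libraries, and the odontoblast-like cluster by Bglap, Bglap2, Dmp1, Phex, Ifitm5 and Col24a1. Osteoblast markers thus stood among the leading genes of the odontoblast-like clusters, but not in greater number than odontoblast markers. At E15.5 no cluster took either name. The dental papilla-like class held different clusters in the 2 jaws, as described below.

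Ameloblast-like cells had the highest level of Gm40193 of all named classes in both P1 libraries. In the maxillary library 243 ameloblast-like cells held 562 CPM (536 to 588), and 335 odontoblast-like cells held 283 CPM (270 to 296). In the mandibular library 599 ameloblast-like cells held 578 CPM (561 to 596), and 391 odontoblast-like cells held 407 CPM (393 to 422). On the log2 scale the maxillary difference was 0.99 (0.90 to 1.08) and the mandibular one 0.51 (0.44 to 0.57), past counting error in each. Its order depended on the clustering. At a coarser resolution of 0.5 the maxillary ameloblast-like class grew to 807 cells at 267 CPM, below 350 CPM in the odontoblast-like class. At a finer resolution of 2.0 the mandibular values were 591 and 577 CPM. Without shared barcodes only 11 ameloblast-like and 15 odontoblast-like maxillary cells were left, with 116 CPM (2 UMIs, 14.0 to 418) and 191 CPM (15 UMIs, 107 to 315), an order that turned over but lay within counting error.

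Among the parts of the mesenchyme with a name, dental papilla-like cells came after odontoblast-like cells. They held 73.3 CPM in the maxillary library (3394 cells, 70.8 to 75.8) and 61.3 CPM in the mandibular library (1228 cells, 57.7 to 65.0). Of the 3317 maxillary UMIs 2299 were in a cluster at 147 CPM, and another papilla-like cluster held 6.83 CPM (4.88 to 9.30). Without shared barcodes, 103 maxillary papilla-like cells were left at 69.8 CPM (22 UMIs, 43.8 to 106). The mesenchyme-like cells that were neither odontoblast- nor papilla-like held 3.21 CPM (2.56 to 3.97) in the maxillary and 91.0 CPM (88.1 to 94.0) in the mandibular counts. Without shared barcodes the maxillary value was 0.0793 CPM (1 UMI in 4322 cells, 0.00201 to 0.442). Of the 3754 mandibular UMIs 3461 were in 1 cluster without a finer name. Odontoblast-like cells were higher than papilla-like cells by 1.95 (1.87 to 2.03) and 2.73 (2.63 to 2.83) on the log2 scale. Among epithelium-like cells other than ameloblast-like ones the level was 50.9 CPM (47.9 to 53.9) and 24.7 CPM (22.4 to 27.2), and the maxillary value was 20.2 CPM (62 UMIs) without shared barcodes. Ameloblast-like cells exceeded those by 3.46 (3.36 to 3.57) and 4.55 (4.40 to 4.70). The mandibular 24.7 CPM leaves out an unnamed cluster of 328 cells at 347 CPM that matched epithelium best. The maxillary 50.9 CPM includes a cluster at 133 CPM that shares the leading gene Igfbpl1 with it. Counted as epithelium, the unnamed cluster raises all mandibular epithelium-like UMIs from 4649 to 6145. The 24.7 CPM would then be higher and the 4.55 smaller, so no order of the jaws is read here. Osteoblast-like cells, the bone-forming mesenchyme that also mineralises its matrix, were named in the mandibular P1 library only and held 7.60 CPM (200 cells, 4.43 to 12.2), which was 5.74 (5.06 to 6.52) below odontoblast-like cells on the log2 scale.

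Blood and immune cells were taken as the background, although it was not tested whether they lack the gene or whether free RNA was the source of their count. The immune- and erythroid-like cells together held 4.94 CPM (3.25 to 7.18) in the maxillary P1 library, with a UMI in 0.810% of 1481 cells. Without shared barcodes their 1217 cells held no UMI, which allows up to 1.11 CPM. In the mandibular P1 library they held 17.9 CPM (15.3 to 20.9), with a UMI in 4.73% of 1373 cells, and their clusters ranged from 2.51 to 59.1 CPM. Their median depth was 2143 and 5280 UMIs, against 13497 and 12690 for ameloblast-like cells and 19859 and 17874 for odontoblast-like cells. No expression is read from levels at or under this pooled background. They include the maxillary follicle-like cells (1.92 CPM), the connective tissue fibroblast-like cells (2.03 and 8.99 CPM), the mandibular tendon-like (16.7 CPM) and osteoblast-like cells, and the muscle-like cells (1.19 and 5.48 CPM). The mandibular follicle-like cells, at 19.9 CPM (13.2 to 28.7), overlapped it. The maxillary endothelium-like cells, at 5.16 CPM (3.34 to 7.61), overlapped it as well. They and the maxillary follicle- and fibroblast-like cells held no UMI without shared barcodes. In the mandibular library the endothelium-like cells, at 27.3 CPM (22.3 to 33.2), and the glia-like cells, at 35.1 CPM (39 UMIs in 99 cells), were above the pooled background but within the range of its clusters, which included an immune-like cluster at 47.7 CPM (38.4 to 58.6). The same holds for the mandibular epithelium-like cells other than ameloblast-like ones at 24.7 CPM, without the unnamed cluster at 347 CPM. Their own clusters of at least 50 cells ranged from 7.61 CPM to 85.4 CPM (67.9 to 106). The mandibular papilla-like cells at 61.3 CPM lay within the interval of the highest immune- or erythroid-like cluster (59.1 CPM, 41.6 to 81.4).

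**Figure D1:**
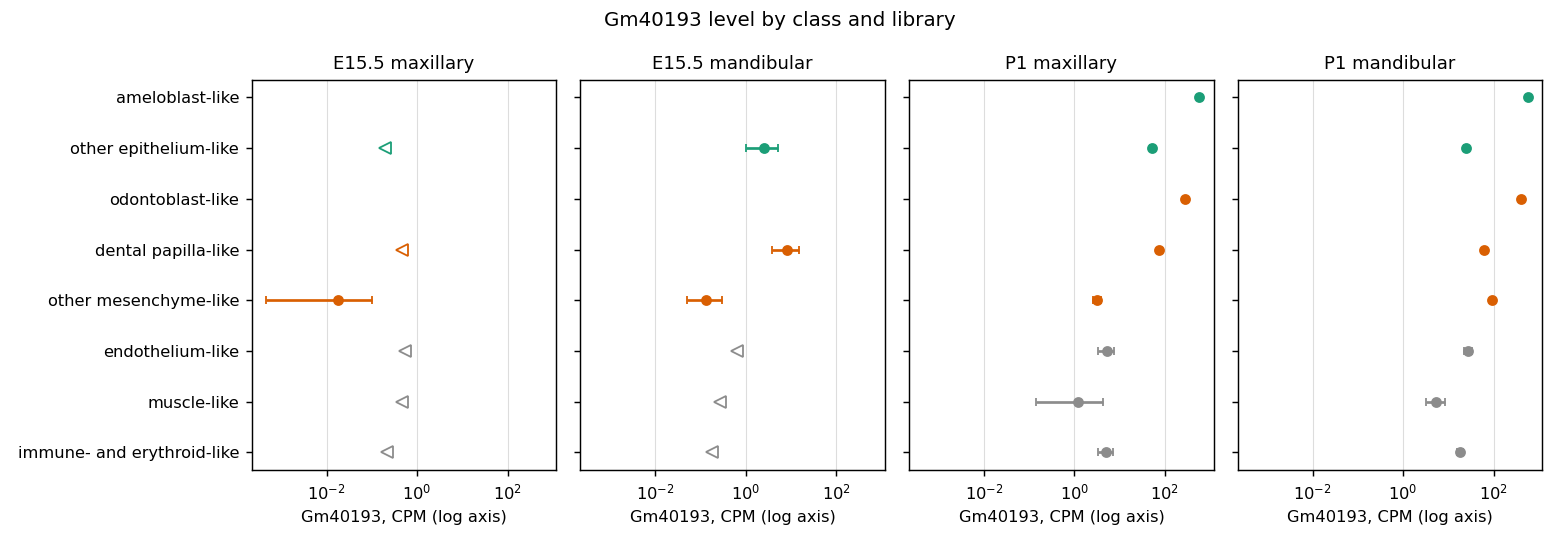
Gm40193 level by class in each of the 4 libraries, in CPM on a log axis, with points for the level, bars for 95% Poisson intervals and open triangles for the upper limit where no UMI was counted. At P1 the ameloblast-like cells sit at 562 and 578 CPM and the odontoblast-like cells at 283 and 407 CPM, whereas no E15.5 class exceeds 8.13 CPM.

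The ratio of Gm40193 to an ameloblast transcript differed between classes. For each 1000 UMIs of Amelx, maxillary ameloblast-like cells held 16.9 Gm40193 UMIs and mandibular ones 10.3 at P1. Immune-like cells held 16.8 and 43.0. Odontoblast-like cells held 10516 and 1730, and papilla-like cells held 2184 and 514. The Gm40193 count of odontoblast-like and papilla-like cells thus came with far less Amelx than in ameloblast-like cells.

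Mesenchyme-like cells were also split by UMIs of the epithelial genes Epcam, Krt14 and Krt5. All mesenchyme-like cells without such a UMI held 66.7 CPM (64.7 to 68.7) in the maxillary and 116 CPM (113 to 119) in mandibular counts, below 74.3 CPM (69.7 to 79.2) and 124 CPM (119 to 129) in those with one. Odontoblast-like cells without one held 278 CPM (264 to 292) in 282 maxillary cells and 397 CPM (380 to 415) in 291 mandibular cells, against 303 CPM (274 to 335) and 430 CPM (403 to 458) in those with such a UMI. Papilla-like cells without epithelial UMIs held 75.7 and 64.2 CPM, above 62.9 and 53.4 CPM in those with them. The part of epithelial RNA in these levels was not tested. In the other direction, ameloblast-like cells without a UMI of the collagen genes Col1a1, Col1a2 and Col3a1 held 522 CPM (453 to 600) in 45 maxillary cells and 496 CPM (435 to 562) in 63 mandibular cells. Those with such a UMI held 567 CPM (198 cells, 540 to 595) and 584 CPM (536 cells, 566 to 603), so the mandibular intervals did not overlap.

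A small share of the cells carried much of the count. Ameloblast- and odontoblast-like cells were 3.39% of the kept cells and held 45.0% of the Gm40193 UMIs in the maxillary P1 library, and they were 9.78% of the cells with 50.3% of the UMIs in the mandibular one. With papilla-like cells the shares of UMIs came to 84.9% and 58.0%, in 23.3% and 21.9% of the kept cells. The 58.0% leaves out a mandibular mesenchyme-like cluster of 817 cells at 293 CPM, described below. Cells with its leading genes Csmd1 and Tnc counted as papilla-like in the maxillary library, so the jaws are not compared on these shares. The maxillary cells behind the 45.0% had a shared barcode in 95.5% of cases. Mesenchyme-like cells as a whole held 63.9% and 54.7% of the UMIs and were 54.5% and 50.7% of the kept cells. Epithelium-like cells held 35.3% and 32.5% of the UMIs and were 14.9% and 20.4% of the cells. The mandibular values leave out the unnamed cluster of 328 cells at 347 CPM that matched epithelium best.

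Within the carrying classes the count per cell was broad. Ameloblast-like cells had a median of 7 Gm40193 UMIs in both P1 libraries, and odontoblast-like cells had 4 and 6. Counts of at least 5 UMIs were found in 67.1% and 61.8% of ameloblast-like cells and in 48.7% and 56.0% of odontoblast-like cells, but in 6.04% and 3.42% of papilla-like cells. The highest count, 77 UMIs, was in 1 mandibular odontoblast-like cell. On the scale of a cell's own CPM, ameloblast-like cells had a median of 514 in the maxillary library, with a 10th percentile of 0 and a 90th of 950. The mandibular ameloblast-like median was 485, with a 90th percentile of 998. For odontoblast-like cells the medians were 227 and 292.

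A UMI was found in 82.7% and 77.3% of ameloblast-like cells, in 84.5% and 85.4% of odontoblast-like cells, and in 33.3% and 38.6% of papilla-like cells. Thinned to 1000 UMIs per cell, which left out no kept cell, the shares were 37.9% and 34.4%, 21.8% and 28.4%, and 6.22% and 5.62%. Immune- and erythroid-like cells then had 0.0675% and 1.46%. The unthinned shares depend on depth as well as level. Odontoblast-like cells were deeper, with medians of 19859 and 17874 UMIs against 13497 and 12690 in ameloblast-like cells. No order between these 2 classes is therefore read from the unthinned shares, which go against the CPM. Ameloblast-like cells without a Gm40193 UMI were shallow, with a median of 3926 and 3317 UMIs and 7.35% and 9.53% of mitochondrial UMIs. Those with one had 14577 and 14225 UMIs and 2.66% and 2.35%. The part of depth and mitochondrial share in the absence of a UMI was not tested.

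**Figure D2:**
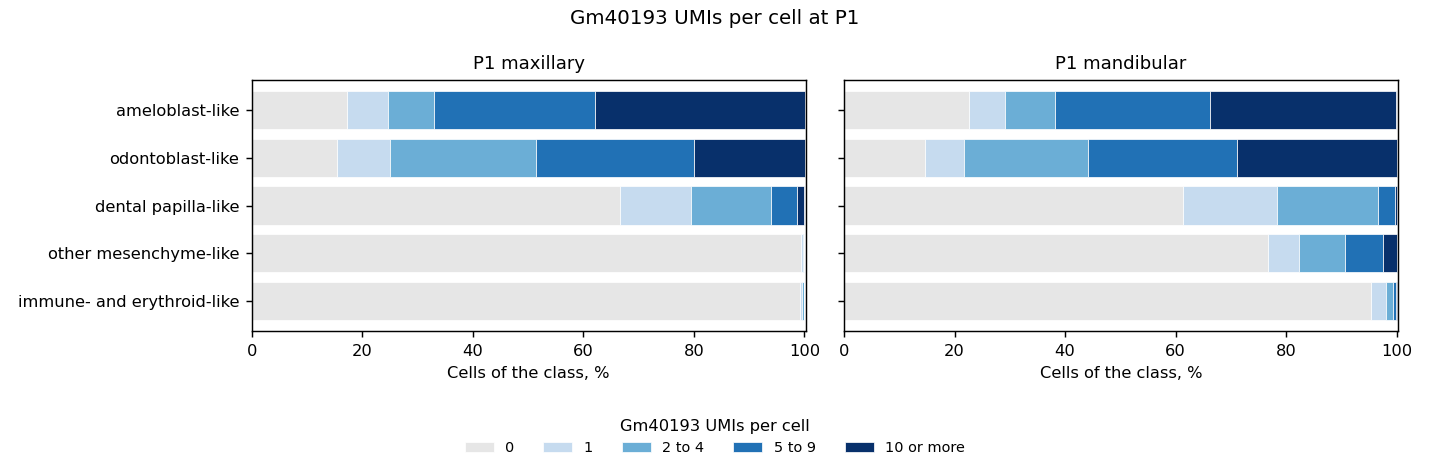
Share of cells (percent, x axis) by number of Gm40193 UMIs per cell, for 5 classes in each P1 library, with darker segments for higher counts. The segment of 10 or more UMIs covers 37.9% of maxillary and 33.7% of mandibular ameloblast-like cells, and 1.21% and 0.326% of papilla-like cells.

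Ordered by level, the maxillary P1 clusters of at least 50 cells began with the ameloblast-like cluster at 562 CPM and the odontoblast-like cluster at 283 CPM. A papilla-like cluster of 1135 cells led by Csmd1, Omd, Plac8 and Tnc was next at 147 CPM (141 to 154). An epithelium-like cluster of 565 cells led by Vwde, Igfbpl1 and Col22a1, with the signal gene Shh among its leading genes, held 133 CPM (125 to 142), and these 2 intervals overlapped. Further papilla-like clusters held 50.1 CPM (45.4 to 55.1) and 36.1 CPM (33.2 to 39.2), and an epithelium-like cluster held 23.6 CPM (18.4 to 29.8). From the 8th place, an immune-like cluster at 10.9 CPM, to the last of the 33 clusters each interval overlapped the next, and in 8 clusters no UMI was counted. That stretch held another papilla-like cluster, of 529 cells at 6.83 CPM (4.88 to 9.30). Its interval overlapped that of the pooled maxillary background at 4.94 CPM (3.25 to 7.18).

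The mandibular order was the same in its first 2 places, with 578 and 407 CPM. The third place belonged to a cluster of 328 cells at 347 CPM (330 to 366) that took no name. It matched epithelium best and was led by Cyp26a1, Frem2, Ralyl and Igfbpl1, with the neuron marker Stmn2 among its first 10 genes. At the coarser resolution the mandibular ameloblast-like class grew to 928 cells, with 493 CPM. The fourth place belonged to 817 mesenchyme-like cells without a finer name at 293 CPM (283 to 303), led by Csmd1, Ctnnd2, Tnc and Gfra2. Csmd1 and Tnc also led the maxillary papilla-like cluster at 147 CPM, so cells with these leading genes counted as papilla-like in the maxillary but not in the mandibular library. From the fifth place, an epithelium-like cluster of shallow cells at 85.4 CPM (67.9 to 106), each interval overlapped the next down to 2.51 CPM in an erythroid-like cluster. An erythroid-like cluster of 331 shallow cells stood at 59.1 CPM (41.6 to 81.4) in the same stretch as papilla-like clusters at 79.0, 62.1 and 40.8 CPM.

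**Figure D3:**
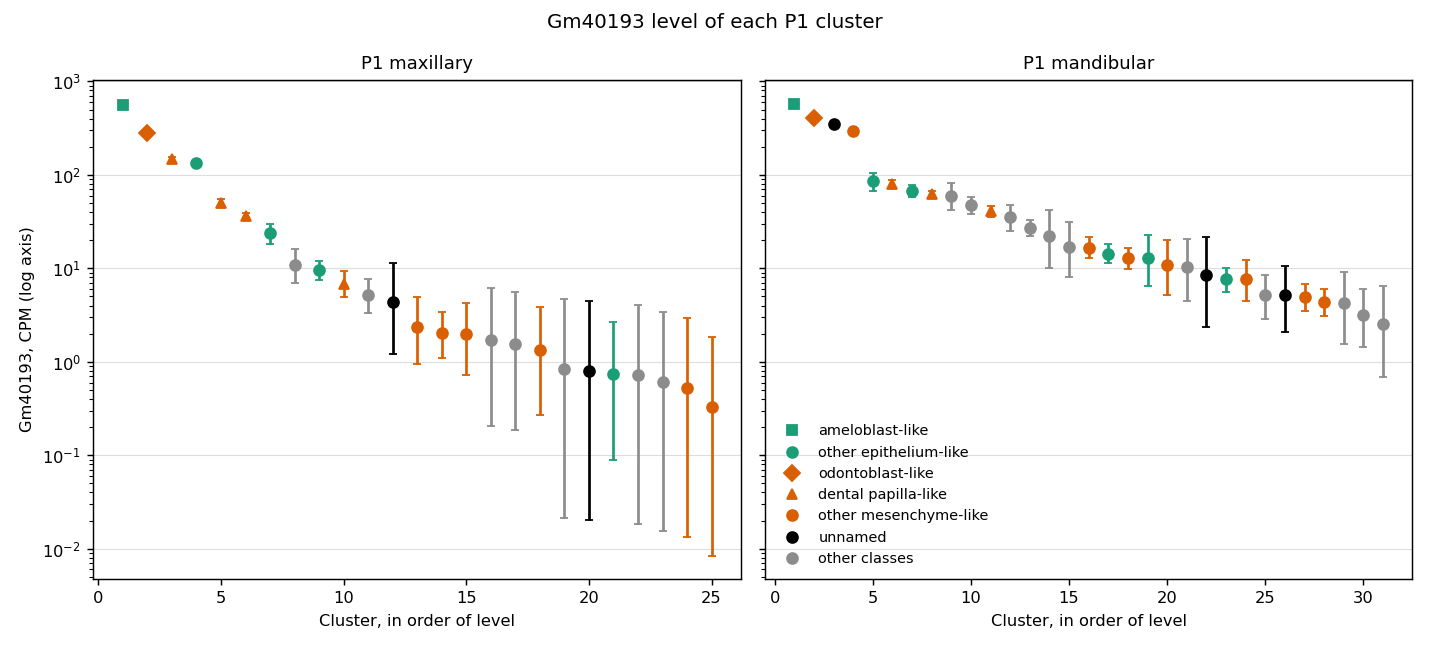
Gm40193 level of each P1 cluster of at least 50 cells in order (y axis in CPM on a log scale, bars 95% Poisson intervals), with colour and shape for the class. The maxillary panel leaves out the 8 clusters with no UMI; the ameloblast-like and odontoblast-like clusters hold the first 2 places in both panels.

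Nearly all maxillary cells with a high level had barcodes of the mandibular library as well, namely 232 of 243 ameloblast-like, 320 of 335 odontoblast-like and 3291 of 3394 papilla-like cells. Whether the values below compare maxillary with mandibular cells or cells of the same jaw cannot be told apart. Between the P1 libraries, the level in ameloblast-like cells did not differ past counting error, with a log2 ratio of mandibular to maxillary of 0.04 (-0.04 to 0.12). Odontoblast-like cells were higher in the mandibular library by 0.53 (0.44 to 0.61). Papilla-like cells were lower by 0.26 (0.16 to 0.36 lower), with the different clusters named above in the class. All mesenchyme-like cells were higher in the mandibular library by 0.79 (0.74 to 0.84), and all epithelium-like cells by 0.70 (0.63 to 0.76). With 1 library per jaw, these differences cannot be told apart from differences between libraries, which also differed in depth and in shared barcodes.

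Mesenchyme-like cells, for which the gene was picked, held 0.0159 CPM at E15.5 (1 UMI in 5851 cells) and 67.9 CPM at P1 (9290 cells, 66.1 to 69.8) in the maxillary libraries, a log2 ratio of 12.06 (9.59 to 17.37). Mandibular mesenchyme-like cells held 0.349 CPM (16 UMIs in 3184 cells, 0.200 to 0.567) and 118 CPM (5130 cells, 115 to 120), a log2 ratio of 8.40 (7.70 to 9.21). Without the shared barcodes, 4440 maxillary P1 cells were left with 38 UMIs, at 2.92 CPM and a log2 ratio of 7.52. The maxillary background without shared barcodes was 0 UMIs, which allows up to 1.11 CPM. Among genes with at least 50 CPM at either stage, Gm40193 had the 3rd largest rise of 4118 genes in the maxillary and of 4064 genes in the mandibular mesenchyme, by log2 with 1 CPM added to both sides (6.08 and 6.46, medians of all genes -0.02 and -0.04). Without shared barcodes Gm40193 missed that floor in the maxillary mesenchyme and had no rank, at a log2 ratio of 1.95 with 1 CPM added. These ranks belong to the contrast that chose the gene.

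Levels were higher at P1 outside mesenchyme as well. Epithelium-like cells went from 0 UMIs in 1004 cells to 117 CPM (113 to 121) in the maxillary libraries, at least 611-fold higher with the E15.5 count set to 3. Without shared barcodes the maxillary P1 level was 20.8 CPM (64 UMIs in 978 cells, 16.0 to 26.5) and the bound at least 108-fold. Mandibular epithelium-like cells went from 2.56 CPM (7 UMIs, all in 1 of 143 cells, 1.03 to 5.28) to 190 CPM (185 to 196), a log2 ratio of 6.21 (5.17 to 7.53). At P1 mesenchyme-like cells as a whole lay below epithelium-like cells, by 0.79 (0.72 to 0.85) for maxillary and 0.69 (0.64 to 0.74) for mandibular cells on the log2 scale. Papilla-like cells, present at both stages, were at least 158-fold higher at P1, from 0 UMIs in 507 maxillary cells, and at least 150-fold higher without shared barcodes. Mandibular papilla-like cells went from 8.13 CPM (10 UMIs, in 2 of 100 cells, 3.90 to 14.9) to 61.3 CPM, a log2 ratio of 2.92 (2.03 to 3.98). Since these E15.5 counts sit in 1 and 2 cells, their intervals understate the uncertainty. The mandibular P1 papilla-like class also leaves out the Csmd1-led cluster of 817 cells at 293 CPM. A Csmd1-led cluster is in the maxillary class, so the papilla-like rises of the jaws are not compared. The immune- and erythroid-like cells taken as background, with 0 UMIs at E15.5, were also higher at P1. They rose at least 22.8-fold in the maxillary and at least 99.2-fold in the mandibular libraries. Without shared barcodes the maxillary ones held no UMI at P1.

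The few E15.5 cells with a Gm40193 UMI could be listed. In the maxillary library it was 1 cell of the osteoblast-like class with 1 UMI. This cell had 33893 UMIs in all, with 207 of Col1a1 but 0 of the osteoblast markers Ibsp and Ifitm5. Dropping the top-scoring Scrublet barcodes removed it. The maxillary mesenchyme log2 ratio between stages was then at least 10.35. In the mandibular library an epithelium-like cell held 7 UMIs, and it was the only cell of that library with at least 100 Amelx UMIs. This cell had 12735 UMIs in all, with 604 of Amelx, 108 of Calb1, 14 of Dspp, 11 of Epcam, 21 of Krt14 and 0 of Col1a1. A pair of papilla-like cells held 5 UMIs each, 1 of them with 50 UMIs of the odontoblast marker Smpd3. An osteoblast-like cell held 2, beside 999 UMIs of the bone matrix gene Ibsp, and 4 mesenchyme-like cells held 1 each. None of these 9 barcodes occurred in a P1 library. The E15.5 immune- and erythroid-like cells held 0 UMIs in 1928 maxillary and 0 in 1980 mandibular cells, which allows levels of up to 0.216 and 0.181 CPM and shares of cells with a UMI, not of expressing cells, of up to 0.156% and 0.152%.

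Some genes of the matrix-secreting cells were also higher at P1. Amelx stood at 1.74 and 8.03 CPM in the E15.5 maxillary and mandibular libraries and 907 and 3904 CPM in the P1 libraries. Dspp stood at 0.00916 and 0.186 CPM and reached 84.1 and 244 CPM. At E15.5 the mandibular values of Amelx and Dspp rested on the 1 Amelx-rich cell above, without which 86 of 690 Amelx UMIs and 2 of 16 Dspp UMIs were left, and Amelx was then lower than in the maxillary library. Bglap, the osteocalcin gene of bone and dentin, went from 0.330 and 1.50 CPM to 80.4 and 159 CPM. Ambn stood at 1.70 and 1.58 CPM at E15.5, with 61.3 and 145 CPM in the P1 libraries.

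The 6 nearest annotated neighbours of Gm40193 were read beside it. Psmb6, a proteasome subunit gene 4374 bases away, was at 196 and 173 CPM in the E15.5 libraries and stayed near that in the P1 libraries (225 and 200 CPM). Pld2, which encodes a phospholipase D and lies 7125 bases away on the other side, was at 6.59 and 5.61 CPM in the E15.5 and 10.4 and 12.1 CPM in the P1 libraries, with 28.0 and 23.4 CPM in ameloblast-like cells. Its Pearson correlation with Gm40193 across P1 clusters was 0.57 and 0.49, the highest smaller value among the 6 neighbours. With at most 28.0 and 26.5 CPM in a cluster it was under the floor of the ranking described next. Mink1, a kinase gene, was at 20.2, 14.3, 19.1 and 23.3 CPM in the E15.5 maxillary, E15.5 mandibular, P1 maxillary and P1 mandibular library. Vmo1 and Gltpd2 on the Psmb6 side and the antisense gene Gm12316 within the span of Mink1 stayed between 0.0116 and 1.19 CPM in every library. None of the 6 overlapped Gm40193 in the annotation.

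Genes whose levels went with those of Gm40193 were ranked by the smaller of the Pearson correlations of log2(CPM + 1) across the P1 clusters of each library, 33 maxillary and 31 mandibular clusters of at least 50 cells. This is a description, since clusters of a library share its depth and free RNA. Among 7653 genes with at least 50 CPM in a cluster of each library the median was 0.09, the 95th percentile 0.39 and the 99th 0.56. Sp6 was first, with 0.91 and 0.87. It encodes epiprofin, a zinc finger transcription factor of the dental epithelium and odontoblasts. It was followed by Ambn (0.82 and 0.82), Pla2g5 (0.88 and 0.78), which encodes a secreted phospholipase A2, and Bambi (0.82 and 0.78), a pseudoreceptor that dampens TGF-beta and BMP signals. The Nudix hydrolase gene Nudt4 (0.75 and 0.77), the ligand gene Wnt6 (0.79 and 0.74), the homeobox gene Msx2 (0.78 and 0.74), the chromatin organiser Satb1 (0.74 and 0.73), the homeobox gene Dlx3 (0.73 and 0.74) and the inhibitory Smad gene Smad6 (0.73 and 0.72) completed the first 10. The 11th gene had 0.71, so the last places were close to those just outside.

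The like genes differed in where they were high. Sp6 stood at 456 CPM in the maxillary ameloblast-like cluster, 303 CPM in the odontoblast-like cluster and 116 CPM in the Csmd1-led papilla-like cluster, but its highest level of 470 CPM was in the Vwde-led epithelium-like cluster. In the mandibular library Sp6 stood at 394, 315 and 118 CPM in the ameloblast-like, odontoblast-like and Csmd1-led clusters, and at 443 CPM in the unnamed cluster. Wnt6, a Wnt ligand, was highest in the maxillary ameloblast-like cluster at 624 CPM, against 359 CPM in the odontoblast-like and 54.2 CPM in the Csmd1-led cluster. Msx2 ran the other way, with 86.3 CPM in the ameloblast-like, 190 CPM in the odontoblast-like and 200 CPM in the Csmd1-led maxillary cluster. Satb1 was high in epithelium, with 1848 and 1952 CPM in the ameloblast-like and 150 and 187 CPM in the odontoblast-like clusters. Bambi was highest in the odontoblast-like clusters, with 679 and 702 CPM.

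**Figure D4:**
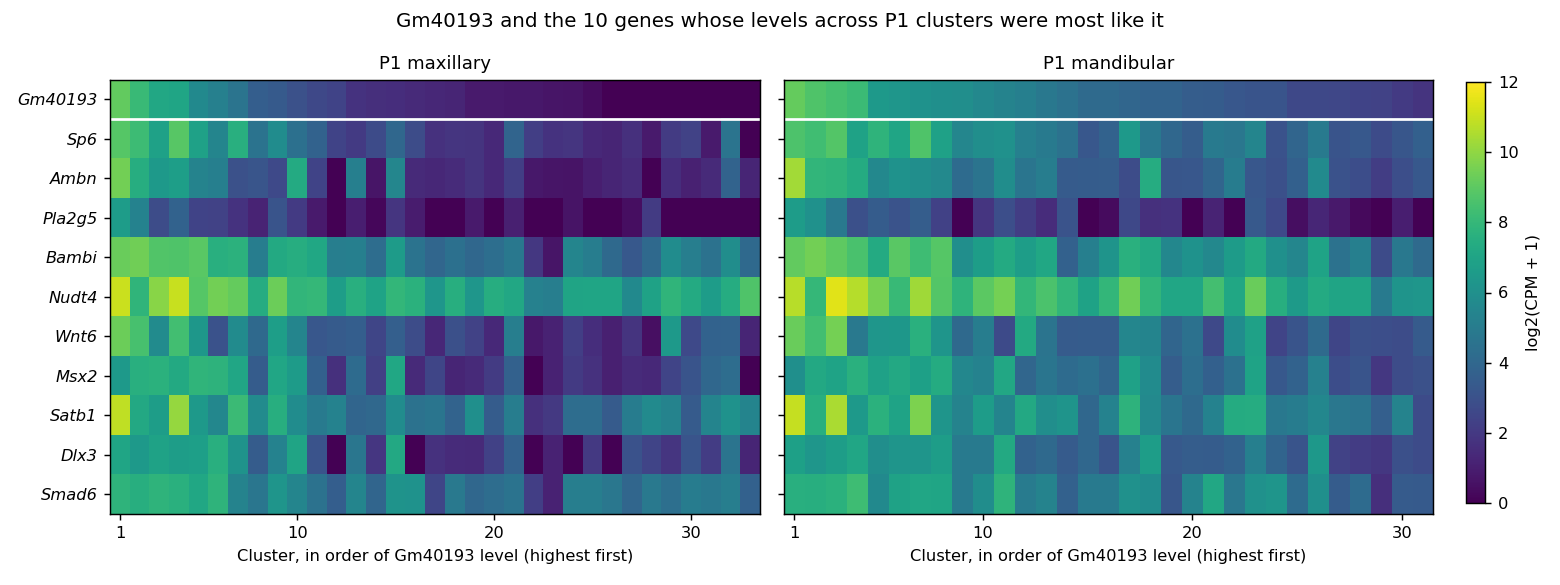
Levels of Gm40193 (top row) and of the 10 genes most like it across P1 clusters, as log2(CPM + 1) in colour, with clusters ordered by Gm40193 level from left to right in each library. Sp6, with correlations of 0.91 and 0.87, darkens from left to right with Gm40193, while Satb1 and Nudt4 keep high levels in some clusters further right.

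Shared barcodes and the choice of clusters bore on this list. With shared barcodes dropped, 26 maxillary clusters were left and 7 of the 10 genes stayed among the first 10. Over mesenchyme-like clusters alone (13 and 11), only Sp6 of the 10 stayed, at a smaller correlation of 0.94, behind Proser2 (0.95) and Arl4a (0.95). Sp6 was among the first 10 under each of the 6 alternatives and first in 5 of them.

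Lists of genes were read against the same ranking, where 5% of genes are in the top 5% by construction and the median is 0.09. Of the ameloblast markers 4 of 6 had enough counts to be ranked, and those 4 were in the top 5%, with a median of 0.63 (Amelx 0.70 and 0.58). Of 5 odontoblast markers 2 were there, Dspp (0.76 and 0.68) and Col24a1 (0.47 and 0.44), with a median of 0.35. Dspp was higher in the ameloblast-like clusters (2160 and 2223 CPM) than in the odontoblast-like ones (430 and 1193 CPM). Osteoblast markers were close to that, with 1 of 7 there, Sp7 (0.56 and 0.42), and a median of 0.31. The papilla marker Fgf3 (0.71 and 0.47, 1 of 6) and the neuron marker Tubb3 (0.49 and 0.80, 1 of 3) were there as well. Of 21 ranked odontogenic and mesenchymal transcription factors 5 were there, all homeobox genes (Msx2, Dlx2, Dlx3, Dlx4 and Dlx5), with a median over the list of -0.04. Of 11 ranked Wnt genes 3 were there, Wnt6, Wnt10a (0.80 and 0.64) and the Wnt inhibitor gene Dkk1 (0.58 and 0.43), with a median of 0.12. None of 12 long non-coding RNAs (median -0.11), 15 immediate early and stress genes (-0.28), 15 cell cycle genes (-0.26), 25 extracellular matrix genes (-0.04) or 11 imprinted growth genes (-0.43) was in the top 5%. Dspp and Col24a1 and the ameloblast markers helped to name the clusters, so their place in this ranking is not independent of the classes above. Wnt10a stood at 243 CPM in the maxillary ameloblast-like and 181 CPM in the odontoblast-like cluster.

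Mesenchyme-like cells with a Gm40193 UMI were also compared with those without one, so that cells were set against cells of their own cluster and of the same of 5 depth classes. There were 1450 maxillary and 1625 mandibular carriers, against 3668 and 3422 cells without a UMI in the same strata. Of the 1450 maxillary carriers 1432 (98.8%) had a barcode shared with the mandibular library, against 43.6% of maxillary mesenchyme-like cells without a UMI, so the values of the jaws are not shown to be independent. Of 3553 genes with at least 50 CPM on the higher side in both libraries, 27 (0.760%) were at least 2-fold higher and 7 (0.197%) at least 2-fold lower in maxillary carriers. In mandibular carriers 19 (0.535%) were at least 2-fold higher and 12 (0.338%) lower. The median log2 ratios over all these genes were -0.00 and -0.06. Cells of a library are not replicates, so these values carry no test.

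The 5 genes highest in carriers were Dspp, Dmp1, Irx5, Bglap and Phex. Dspp was at 118 CPM in maxillary carriers against 6.73 CPM without (log2 ratio 3.94) and at 320 against 40.7 CPM in the mandibular library (2.95). Dmp1, an acidic matrix protein of dentin and bone, was at 115 against 17.3 CPM (2.67) and at 140 against 14.9 CPM (3.14). Bglap was at 387 against 124 CPM (1.64) and at 614 against 75.7 CPM in the mandibular library. Phex, an endopeptidase gene of phosphate handling, had log2 ratios of 1.63 and 1.67. Irx5, a homeobox gene, had 1.70 and 1.64. Bglap, Dmp1 and Phex were leading genes of the odontoblast-like clusters, where only 52 maxillary and 57 mandibular cells had no Gm40193 UMI. These were shallower, with medians of 11756 and 7851 UMIs against 20656 and 18736 in those with one. Their median mitochondrial share was 5.70% against 2.66% in the mandibular library and 3.62%, also higher, in the maxillary one. Weights used depth class but not mitochondrial share, and the part of either in these ratios was not tested. Dspp, Dmp1 and Irx5 reached the floor of 50 CPM only in carriers, in both libraries. The rule asked for the same sign in both libraries. With a floor of 10 CPM the first 5 were Dspp, Dmp1, Tspan8, Fabp7 and Heyl. Without shared barcodes 18 maxillary carriers were left, set against 167 cells, and Bglap (2.15) and Phex (0.06) kept their sign while Dspp (-1.05), Dmp1 (-0.12) and Irx5 (-0.25) did not, on 6 to 23 UMIs per gene in carriers.

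The genes lowest in carriers were Cntn6 (157 against 367 CPM and 70.0 against 165 CPM, log2 ratio -1.22 in both), which encodes a contactin adhesion protein, and the histone deacetylase gene Hdac9 (-1.13 and -1.65). Smoc2, a follicle marker that encodes a matricellular protein, had -1.08 and -0.93. Dock10, a guanine nucleotide exchange factor gene, had -0.89 and -1.07, and Trabd2b, whose product cleaves Wnt proteins, had -0.88 and -1.04. Smoc2 in the mandibular and Dock10 and Trabd2b in the maxillary library did not reach 2-fold. In the 18 maxillary carriers without a shared barcode these 5 genes had 0 to 2 UMIs each, too few to compare.

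**Figure D5:**
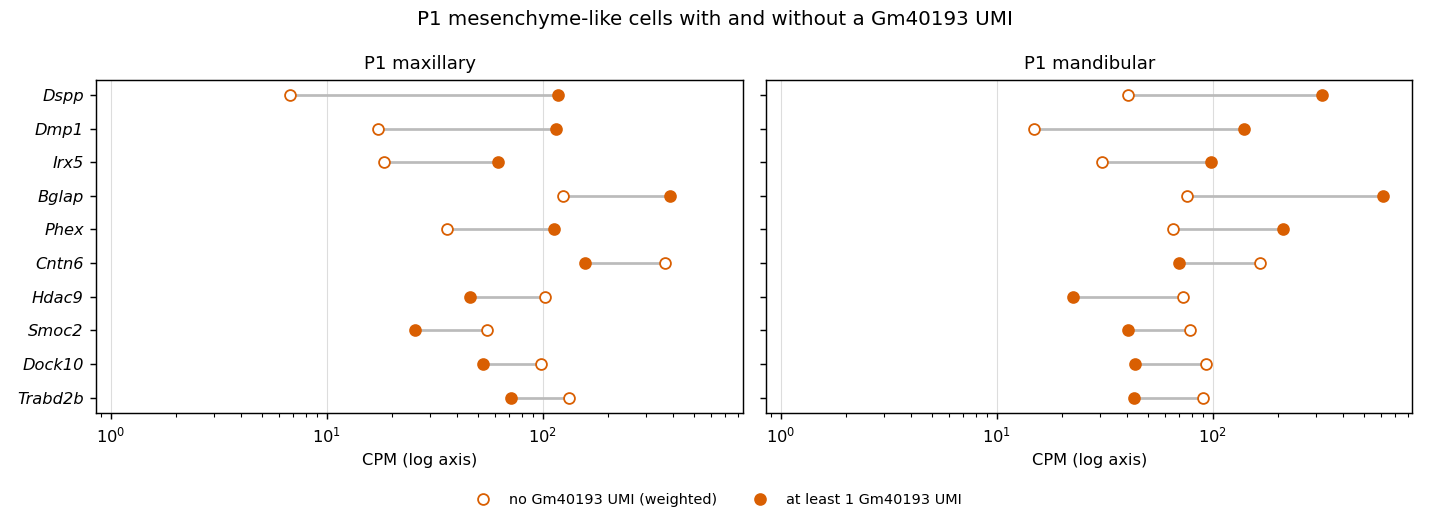
Levels (CPM, log axis) of the 5 highest and 5 lowest genes in P1 mesenchyme-like cells with at least 1 Gm40193 UMI (filled points) and in weighted cells without one (open points). Dspp spans the widest gap in the maxillary library, 6.73 to 118 CPM, and the 5 lower genes are further left in carriers in both jaws.

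By list, 3 of 5 odontoblast markers (Dspp, Dmp1 and Phex) were at least 2-fold higher in carriers of each jaw, with medians of 1.63 and 1.67. Smpd3 (0.07 and -0.07) and Col24a1 (0.48 and 0.09) were not. Dspp and Dmp1 passed the floor of 50 CPM only through carriers in both libraries. Phex did so in the maxillary one, at 35.9 CPM in cells without a UMI. The floor asks for 50 CPM on the higher side only, so the count of 3 is partly set by it. Of the 6 measured osteoblast markers 3 and 2 were at least 2-fold higher, and Ibsp, which was under the floor of 50 CPM in the mandibular library, was lower in maxillary carriers (26.7 against 275 CPM). Of 6 ameloblast markers, Ambn passed the floor of 50 CPM in both and was at 1.25 and 1.01. Of 10 long non-coding RNAs 1 was 2-fold higher in maxillary carriers, Neat1 (1.21, and 0.54 in the mandibular library), and Malat1 had 0.08 and 0.04. Of 10 imprinted genes 1 was 2-fold higher in the maxillary library, the growth inhibitor gene Cdkn1c (1.24 and 0.78). Of 6 Wnt genes none reached 2-fold (median 0.28 in both, Wnt6 0.40 and 0.91, Wnt10a 0.22 and 0.55). The same held for 9 immediate early and stress genes (medians -0.44 and -0.26), 6 cell cycle genes (-0.07 and -0.24) and 12 transcription factors (-0.19 and -0.18). Of 22 matrix genes 0 and 2 were higher, the 2 being the collagen I genes Col1a1 (1.02) and Col1a2 (1.07) in the mandibular library.

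Markers of blood moved with this comparison. All 4 measured erythroid markers were at least 2-fold lower in mandibular carriers, with Hbb-bs, the most abundant, at 1596 against 3618 CPM (-1.18), and they lay at -0.54 to -0.70 in the maxillary library (Hbb-bs 232 against 345 CPM). No epithelium, endothelium, immune, muscle or glia marker had 50 CPM on the higher side in both libraries. Below that floor, ameloblast and epithelial markers differed between the libraries. Amelx was at 28.7 against 33.4 CPM in maxillary and 183 against 108 CPM in mandibular carriers, and Mmp20 was at 28.6 against 0.472 CPM in mandibular carriers. The epithelial genes Krt14, Krt5 and Trp63 were at 0.86, 0.85 and 1.17 on the log2 scale in mandibular and at -0.69, 0.04 and 0.34 in maxillary carriers. The part of free blood or epithelial RNA in the values of carriers was not tested.

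Beside Gm40193, lists were counted in the stage contrast of mesenchyme, where 276 of 4118 maxillary genes (6.70%) were at least 2-fold higher and 169 (4.10%) lower at P1, and 291 of 4064 mandibular genes (7.16%) higher and 119 (2.93%) lower. Without shared barcodes 44 of 3867 maxillary genes were higher and 17 lower, so the maxillary counts below rest on those barcodes. Of the odontogenic transcription factors 5 of 19 were higher and 6 lower in the maxillary, and 5 of 14 higher and 3 lower in the mandibular mesenchyme. Those higher in both included Msx2 (log2 ratio 5.55 and 4.73), Dlx4 (4.76 and 4.03), Dlx3 (4.35 and 3.96) and Dlx5 (2.19 and 1.63). Of the Wnt genes 2 of 7 and 3 of 7 were higher and 2 and 0 lower, with Wnt6 (3.44 and 4.61) and Dkk1 (3.28 and 4.08) higher in both. Genes entered this contrast with at least 50 CPM at either stage. Msx2, Dlx3, Dlx4, Dlx5, Wnt6 and Dkk1 were under that at E15.5 in both jaws (1.66 to 35.6 CPM) and entered through P1 only. The counts of higher genes are thus partly set by the floor. No imprinted growth gene of 11 was higher, and 6 and 7 were lower, with medians of -1.01 and -1.05. No long non-coding RNA of the list was higher (10 measured in each jaw), 2 and 1 were lower, and the medians were -0.38 and -0.28. Of the 24 and 25 matrix genes 2 and 3 were higher and 7 and 0 lower, with medians of -0.78 and -0.12. Of 9 and 11 cell cycle genes none was higher and 0 and 1 were lower (medians -0.55 and -0.61), and of 14 and 15 immediate early and stress genes 0 and 1 were higher and none lower (-0.03 and 0.58).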

How the data were processed

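The data were raw UMI counts per gene and barcode, which the authors deposited without normalization. The submitters' processing notes name Cell Ranger 7.0.1 and mm10, and whether intronic reads were counted is not given in the sources used here. Barcodes with at least 1000 UMIs were kept, and barcodes of the P1 mandibular library also present in the P1 maxillary library were dropped. Gm40193 and all gene lists, markers and thresholds were chosen with earlier results of these data known, and the thresholds for names were settled with the clusters in view.

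Each library was clustered on its own with scanpy 1.11.5 (counts scaled to a common depth and log-transformed, 2000 variable genes without Gm40193, mitochondrial and ribosomal protein genes, 40 principal components, 15 neighbours, Leiden at resolution 1.0 with leidenalg 0.10.2). A cluster took a "-like" name when the mean position of its markers, from 0 at the 10th percentile of clusters to 1 at the highest, was at least 0.6 (0.5 for parts of a class), with at least 3 markers in at least 10% of cells. It stayed unnamed if another class led its first 10 genes or if it was over 3 times shallower than its library. The rebuilt names may differ from those of the study. Unnamed cells were 0.774%, 7.45%, 7.38% and 5.38% of the E15.5 maxillary, E15.5 mandibular, P1 maxillary and P1 mandibular cells. Doublets were left in. Scrublet's own threshold marked 2, 0, 0 and 0 barcodes and did not work, so dropping the top-scoring 948, 505, 2800 and 3011 barcodes was an alternative.

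Levels are summed UMIs per 1000000 UMIs of a class, with exact Poisson intervals. Shares have exact Clopper-Pearson intervals, and ratios exact binomial ones, at 95%, for counting error only. A count of 0 was set to 3 over the class in a ratio, which makes it a bound. Cells with and without a Gm40193 UMI were weighted within cluster and within 5 depth classes of equal size. In log2 ratios between genes' CPM, 1 CPM was added. The genes named are the 10 with the highest smaller correlation, the 5 highest and 5 lowest in carriers with the same sign in both libraries, 3 annotated neighbours on each side, and list members. On simulated data, all 200 planted like genes (of 3000) were among the first 200. All planted carrier genes (simulated over 32285 genes from maxillary P1 mesenchyme) kept the direction they were given, and they were not ranked. The planted patterns were strong and no free RNA was simulated, so this checks the calculation only. Transcript models are from GENCODE and RefSeq for GRCm38. RNAscope images were not analysed here.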

Additional observations from a re-analysis of the deposited data

How the results depend on the processing

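The log2 ratios between stages and between mesenchyme and epithelium kept their sign under each alternative. The order of maxillary ameloblast- and odontoblast-like cells turned over at resolution 0.5 (267 and 350 CPM) and without shared barcodes (116 and 191 CPM). A paired fit of stage with jaw as a block, with 1 residual degree of freedom among the 4 libraries, was not run, since the stage contrast chose the gene. The level in P1 mesenchyme moved past its counting interval from 67.9 CPM to 70.4 (doublets by Scrublet rank dropped), 2.92 (shared barcodes dropped from both P1 libraries), 37.2 (cells thinned to 1000 UMIs), 33.9 (mean over cells) and 49.9 (resolution 2.0) in the maxillary library. In the mandibular library it moved from 118 to 125 (doublets), 110 (shared barcodes kept), 96.5 (thinned), 93.8 (mean over cells) and 89.2 (resolution 2.0). The stage log2 ratio moved to 7.52 without shared barcodes and to at least 6.18 when thinned in the maxillary molar, and to at least 6.68 when thinned in the mandibular one. Thinning left no E15.5 mesenchyme UMI, which sets those bounds. The log2 ratio of mesenchyme to epithelium moved from -0.79 in the maxillary library to -1.02 (filter on mitochondrial share and detected genes), -2.83 (shared barcodes dropped), -1.20 (thinned), -1.35 (mean over cells), -1.23 (resolution 2.0) and -0.70 (cells named by their own markers). In the mandibular library it moved from -0.69 to -0.94 (filter), -0.82 (mean over cells), -0.92 (resolution 0.5), -1.10 (resolution 2.0), -0.90 (own markers) and, as an alternative chosen after seeing the data, -0.86 with the unnamed cluster counted as epithelium. Of the 10 like genes 5 remained with Spearman's rho, 5 with a pseudocount of 10 CPM and 1 over mesenchyme clusters only. Of the 10 carrier genes 3 remained without weights, 4 with weights by depth class only and 4 with a floor of 10 CPM, and all 10 kept their sign under these alternatives, under the carrier minimum of 2 UMIs and without doublets in both libraries. With shared barcodes dropped, an alternative chosen after seeing the data, 4 of the 10 carrier genes remained (Bglap, and Cntn6, Hdac9 and Dock10 on 1 UMI each in maxillary carriers), and 2 of the 5 highest genes kept their sign in the maxillary library. The cause of these moves was not tested. The levels of ameloblast- and odontoblast-like cells under other settings were added after seeing the data. At E15.5, counts of 0 to 23 UMIs limit any comparison between classes.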
